A study of Homo sapiens with 5 samples.

Results

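DYNC1H1, LYST and DMXL2, a group of giant genes of dynein transport and vesicle trafficking, were described together with DMXL1, LRBA, NBEAL2, WDFY3, WDFY4 and HUWE1. The genes were taken by name from the authors' deposited table, where all 9 were present among 6309 genes. The first 3 were selected on their deposited drug coefficients and adjusted p-values, which had passed the threshold, so the values of the 9 genes below are a description and not a test. They are known for very long coding sequences; coding length itself was not analysed here.

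HL-60, an established human promyelocytic leukaemia line of wild-type genotype, received decitabine (100 nM) at the start and again after 24 and after 48 hours, or the solvent DMSO, and all lysates were made at 72 hours. Decitabine is a deoxycytidine analogue that enters DNA and traps DNA methyltransferases. In ribosome profiling, the stretches of mRNA covered by ribosomes survive nuclease treatment and are sequenced, and their amount relative to total RNA gives the translation efficiency of a transcript. From wells seeded in duplicate, 2 total RNA libraries were listed for decitabine and 2 for DMSO, and the protected fragments of the barcoded samples made up 1 further pooled library. The deposited result is 1 drug coefficient per gene with its p-value, with no value per library, so no SD or n stands beside a value and the depth is unknown. Each ± below is a standard error implied by the coefficient and its p-value, and each interval is the 95% interval from it. The coefficient was taken as a natural log, which the column names point to but do not state, and a positive value as higher translation efficiency with drug. All 12 markers of the myeloid lineage looked for, MPO, ELANE and SPI1 among them, were in the table, and none of 11 erythroid, 10 lymphoid or 5 megakaryocytic markers was.

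DYNC1H1 encodes the heavy chain of cytoplasmic dynein, the motor that carries vesicles, lysosomes and other cargo towards the minus end of microtubules and that also works at the mitotic spindle. LYST, LRBA, NBEAL2, WDFY3 and WDFY4 belong to the BEACH-domain family of large scaffolds. Loss of LYST causes Chediak-Higashi syndrome, with giant granules in neutrophils and other leukocytes, loss of NBEAL2 causes grey platelet syndrome, with platelets that lack alpha granules, and loss of LRBA causes an immune deficiency through faulty recycling of CTLA4. DMXL2, also called rabconnectin-3 alpha, and its paralogue DMXL1 help the V-ATPase proton pump assemble and so bear on the acidity of vesicles. HUWE1 is a giant HECT-type ubiquitin ligase.

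The annotated start sites are shown for the 3 genes that passed, because mRNAs whose translation follows growth signals often begin with a terminal oligopyrimidine (TOP) motif and because the drug acts on CpG methylation. Sequences are from RefSeq (GRCh38.p14), 5′ to 3′ on the gene's strand, with 15 bases before the start in lower case and the first 15 transcribed bases in capitals. They cover chr14:101964558-101964587 (plus strand), chr1:235883699-235883728 (minus strand) and chr15:51622757-51622786 (minus strand), in the order printed.
DYNC1H1: gctcccgctctcctcAGTCTGCGGTGGGCT
LYST: acctgccaaagagccAGAGGGAGAGAGGGC
DMXL2: tgggaacatccgggcATTTCCGCAGCTGAG
At these first listed starts the transcribed sequence of all 3 genes begins with A. No TOP-like start, that is a C as first base followed by C or T at each of the next 4 bases on the transcribed strand, was found at any of the 17 starts that RefSeq lists for 8 of the 9 genes. Of 5145 genes of the table with a promoter sequence, 5.83% had such a start at the first listed site. WDFY3 had no entry. RefSeq lists several starts for some genes, and the start used by the deposited transcript was not looked up.

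The 100 bases before the same starts are shown next, with every CpG in capitals, because the 3 genes differ in CpG content there. They cover chr14:101964473-101964572, chr1:235883714-235883813 and chr15:51622772-51622871.
DYNC1H1: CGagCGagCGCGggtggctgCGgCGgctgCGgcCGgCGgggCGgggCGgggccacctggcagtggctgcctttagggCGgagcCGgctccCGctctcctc
LYST: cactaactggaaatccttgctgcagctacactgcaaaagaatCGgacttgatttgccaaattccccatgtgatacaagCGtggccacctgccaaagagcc
DMXL2: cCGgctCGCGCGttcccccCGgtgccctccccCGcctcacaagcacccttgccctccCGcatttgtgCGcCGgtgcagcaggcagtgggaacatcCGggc
These stretches hold 14 CpG in DYNC1H1, 2 in LYST and 10 in DMXL2. Over the whole promoter window of 300 bases (250 before the start and 50 after), DYNC1H1 had 44 CpG and DMXL2 had 38, against a median of 27 over the 5145 promoters. The first listed LYST start had 3, below the 5th percentile of 6, whereas another LYST start further into the gene had 42. The first listed starts of the other 5 genes with an entry ranged from 10 CpG (WDFY4) to 41 (LRBA). The 3 genes that passed thus do not share a CpG-rich or CpG-poor first start.

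Translation efficiency of DYNC1H1, LYST and DMXL2 rose with decitabine, and none of the 9 genes fell past the threshold. By the values the authors deposited, 3 of the 9 genes were higher at an adjusted p below 0.05 and none was lower, where 0.634% of all genes were higher (40 of 6309) and 0.174% lower. Relative to the median coefficient of all genes, 0.09, none of the 3 passed, and the calls over all genes turned from 40 higher and 11 lower to 5 higher and 32 lower. The 3 genes were proposed for having passed, so nothing is read from their share. Of the remaining 6, none passed in either direction, and the authors' adjusted p for them ran from 0.602 to 0.985. With other call rules on the authors' values, 3 of the 9 genes were higher at an adjusted p below 0.1 (all genes: 1.05% higher, 0.317% lower), at a q-value below 0.05 (0.761% and 0.190%) and without the 25% of genes with the largest implied error (0.972% and 0.254%). None was at an adjusted p below 0.01 (0.206% and 0.0951%) or with the Benjamini-Yekutieli adjustment (0.190% and 0.0951%). The looser threshold and the q-value, 0.83 times the adjusted p for every gene, can only keep calls, so they add no support.

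For DYNC1H1 the authors' deposited table gave a coefficient of 0.30 ± 0.08 (implied SE) with an adjusted p of 0.0343. On a natural log scale this is 1.35 times the DMSO level, with an interval from 1.15 to 1.58. Its implied error was among the smallest in the table, at percentile 1.55 of all genes, while 1338 genes had a larger coefficient. The gene spans 101964573 to 102056443 of chromosome 14 on hg38.

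LYST, the granule and lysosome scaffold, stood at 0.38 ± 0.11 (implied SE) in the authors' deposited table, with an adjusted p of 0.0369. The corresponding fold was 1.47, with an interval from 1.20 to 1.81. Its error lay at percentile 4.68 of all genes. Among the 40 genes called higher, 16 had a larger coefficient than LYST and 26 a larger one than DYNC1H1. LYST lies on the minus strand of chromosome 1 from 235661031 to 235883713.

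DMXL2 showed the largest coefficient of the 9 genes in the authors' deposited table, 0.64 ± 0.17 (implied SE), with an adjusted p of 0.0272. The fold was 1.89, with an interval from 1.37 to 2.63. Among the 1262 genes in the most precise 20% of the table, to which 6 of the 9 genes belong, 1 gene had a larger coefficient. In that class 49 genes had a larger coefficient than LYST and 137 a larger one than DYNC1H1. DMXL2 lies at the edge of that class, with an error at percentile 19.9. Among all genes, 235 had a larger coefficient, 5 of them among the 40 higher calls. DMXL2 lies on the minus strand of chromosome 15 from 51447791 to 51622771. If the deposited coefficients were log2 values, the folds would be 1.23 for DYNC1H1, 1.31 for LYST and 1.56 for DMXL2.

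**Figure D1:**
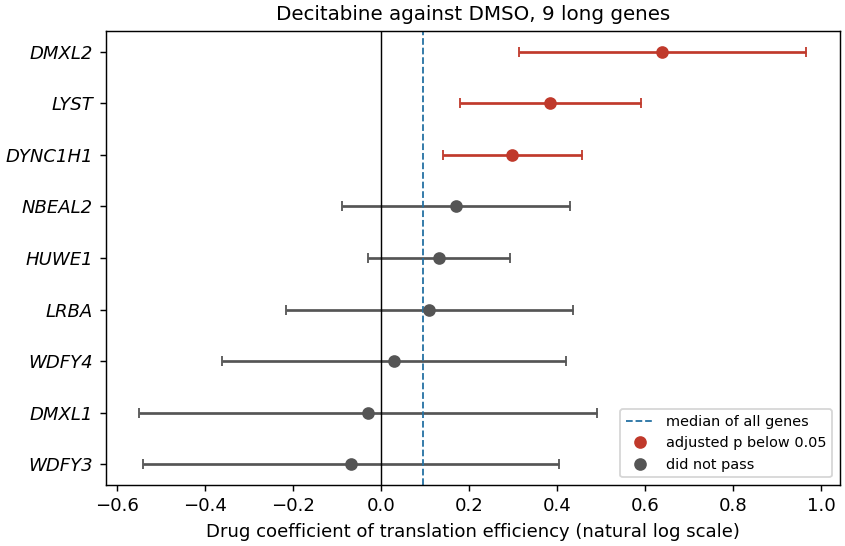
Drug coefficient of translation efficiency (natural log scale) for each of the 9 genes, with its 95% interval from the implied standard error; the dashed line marks the median of all 6309 genes (0.09). The intervals of DMXL2, LYST and DYNC1H1, which were selected on these values, lie above that line, and those of the other 6 genes cross it and cross 0.

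The 3 calls lay near the threshold of 0.05. In the authors' deposited table NASP was the last gene inside it (adjusted p = 0.0481) and DGKZ the first outside it (adjusted p = 0.0518). Since the median of all 6309 coefficients was 0.09 and not 0, the genes were also read relative to it. The coefficients then became 0.20 for DYNC1H1, 0.29 for LYST and 0.54 for DMXL2. The p-values, recomputed from the errors that the authors' p-values imply and adjusted over all genes with Benjamini-Hochberg, were 0.413, 0.293 and 0.129, so none of the 3 passed. On that scale 0.0793% of all genes were called higher and 0.507% lower; relative to the precision-weighted mean, where none of the 9 genes passed either, the shares were 0.0951% and 0.491%. All 3 intervals, from DYNC1H1 (0.14 to 0.46) to LYST (0.18 to 0.59) and DMXL2 (0.31 to 0.97), lay above the median of all genes before adjustment for the number of genes. The 3 genes were selected on these same values, so the place of their intervals is a description and no support.

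For DMXL1, the paralogue of DMXL2, the authors' deposited table gave -0.030 ± 0.27 (implied SE) with an adjusted p of 0.985. Its interval, -0.55 to 0.49, overlaps that of DMXL2. The difference DMXL2 minus DMXL1 was 0.67 with an interval from 0.05 to 1.28, if the errors of both genes are independent; it is given as a description, since DMXL2 was chosen for its value. DMXL1 had the largest error of the 9 genes, at percentile 54.2 of all genes. DMXL1 lies on chromosome 5 from 119071027 to 119249127.

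The other BEACH-domain genes among the 9 lay below LYST. In the authors' deposited table NBEAL2 had 0.17 ± 0.13 (implied SE, adjusted p = 0.709) and LRBA 0.11 ± 0.17 (adjusted p = 0.882). The authors' values for WDFY4, a protein known for cross-presentation in dendritic cells, were 0.028 ± 0.20 and an adjusted p of 0.977. For WDFY3, also called ALFY, an adaptor that brings protein aggregates to autophagy, the authors' coefficient was -0.068 ± 0.24 with an adjusted p of 0.958. LYST minus LRBA was 0.28 (interval -0.11 to 0.66), LYST minus NBEAL2 0.21 (-0.12 to 0.55), LYST minus WDFY4 0.36 (-0.09 to 0.80) and LYST minus WDFY3 0.45 (-0.06 to 0.97). Each of these intervals holds 0, and each also leaves room for a difference larger than the LYST coefficient itself.

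HUWE1 was measured about as precisely as DYNC1H1, and the authors' deposited table gave it 0.13 ± 0.08 (implied SE) with an adjusted p of 0.602. Its interval of -0.03 to 0.29 holds both 0 and the median of all genes. DYNC1H1 minus HUWE1 was 0.17, with an interval from -0.06 to 0.39. The order of the 9 coefficients was DMXL2, LYST, DYNC1H1, NBEAL2, HUWE1, LRBA, WDFY4, DMXL1 and WDFY3. Neighbours in the top of that order were not separated: LYST exceeded DYNC1H1 by 0.09 (interval -0.17 to 0.35) and DMXL2 exceeded LYST by 0.25 (-0.13 to 0.64).

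HUWE1 lies on the X chromosome from 53532096 to 53686719, NBEAL2 on chromosome 3 from 46979666 to 47009701, LRBA on chromosome 4 from 150264435 to 151015727, WDFY3 on the same chromosome from 84669597 to 84966690, and WDFY4 on chromosome 10 from 48684873 to 48982956. In genomic span the 9 genes ran from 30036 bases (NBEAL2) to 751293 bases (LRBA), and 7 of the 9 genes span 100 kb or more. Genes of that span class had a median coefficient of 0.12 (977 genes), against 0.10 for 30 to 100 kb, 0.09 for 10 to 30 kb and 0.06 below 10 kb. Span includes introns and is not coding length.

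Among the 9 genes, those in the most precise 20% of the table had higher coefficients than the rest. The 6 genes in the most precise 20% of the table (DYNC1H1, HUWE1, LYST, NBEAL2, LRBA and DMXL2) had coefficients from 0.11 to 0.64, all above the median of all genes. The other 3 (WDFY4, WDFY3 and DMXL1) had -0.068 to 0.028, all below it. Within the 6 the order did not follow precision: HUWE1 had a smaller error than LYST but a lower coefficient (0.13 against 0.38). LRBA and DMXL2, both with an error at percentile 19.9 and so near the cut, had 0.11 and 0.64. DYNC1H1, LYST and DMXL2 were also chosen for passing a threshold that favours small errors. The most precise 20% of all genes had a median of 0.11 and held 35 of the 40 higher calls (2.77% of its 1262 genes). The part of precision in the order of the 9 genes was not tested.

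**Figure D2:**
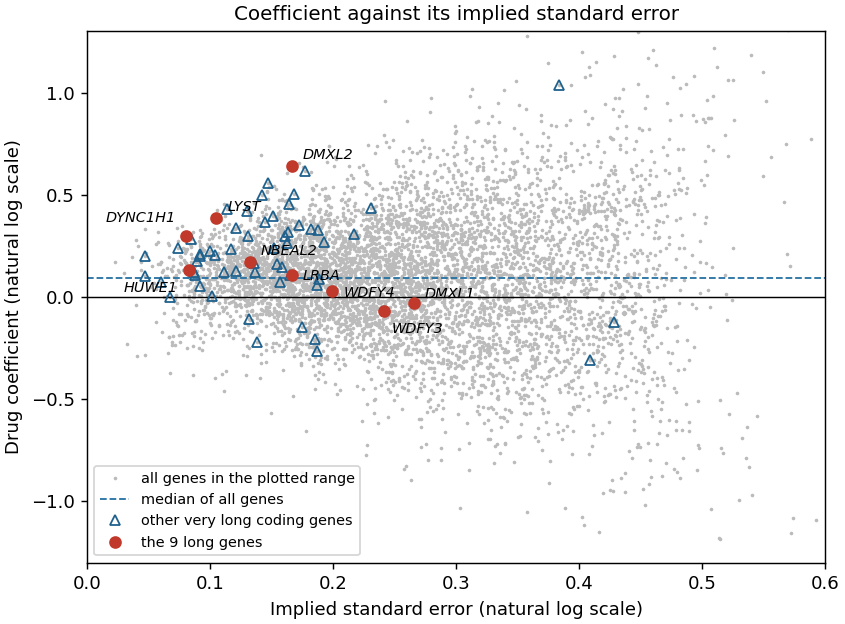
Drug coefficient against its implied standard error (both on the natural log scale) for the genes of the table within the plotted range (grey), the 9 genes (red circles, named) and other genes known for very long coding sequences (blue triangles); the dashed line is the median of all genes, 0.09. DMXL2, LYST and DYNC1H1 lie along the upper edge of the cloud at their precision, and WDFY4, WDFY3 and DMXL1 lie in its middle.

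Partners of the dynein heavy chain did not pass. Besides DYNC1H1, 4 of 10 listed dynein subunits were in the authors' deposited table, with a median of -0.08. The authors' coefficients were 0.41 (adjusted p = 0.595) for DYNC1LI2, a light intermediate chain that links the motor to cargo adaptors, -0.20 (adjusted p = 0.804) for its paralogue DYNC1LI1 and -0.47 (adjusted p = 0.618) for the light chain gene DYNLL2. All 12 subunits of dynactin, the cofactor that makes dynein processive, were present, with a median coefficient of 0.13. In the authors' deposited table DCTN2, the dynamitin subunit, had 0.42 ± 0.22 (implied SE, adjusted p = 0.486) and DCTN1, the large subunit that binds dynein and microtubules, had 0.19 ± 0.17 (adjusted p = 0.763). Of 7 regulators and adaptors the median was 0.021. The authors' values were 0.41 (adjusted p = 0.602) for BICD2, an adaptor for Golgi vesicles and the nucleus, and 0.48 (adjusted p = 0.626) for SPDL1, the kinetochore adaptor Spindly. DYNC1H1, itself chosen for having passed, was the only call among 24 measured genes of these lists. With 0.634% of all genes called higher and 0.174% lower, nothing is read from the lack of calls among its partners. The same holds for the lack of calls in the small lists that follow.

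No partner of DMXL2 passed, and the medians of both partner lists lay below that of all genes. In the authors' deposited table WDR7, the rabconnectin-3 beta subunit, had -0.19 ± 0.23 (implied SE, adjusted p = 0.836), RAB3GAP2, a subunit of the RAB3 GTPase-activating complex, had -0.13 ± 0.18 (adjusted p = 0.863), and MADD, an exchange factor for RAB3, had 0.27 ± 0.20 (adjusted p = 0.699). The 5 genes of this list other than DMXL1 and DMXL2 had a median of -0.07. The 14 measured V-ATPase subunits and accessory proteins had a median of 0.034, with 5 above the median of all genes and none past the threshold. The authors' values were 0.37 ± 0.21 (adjusted p = 0.547) for ATP6V1G1, a subunit of the pump's stator stalks, 0.22 ± 0.13 (adjusted p = 0.580) for the accessory subunit ATP6AP2 and 0.18 ± 0.12 (adjusted p = 0.638) for TCIRG1, an a-subunit isoform.

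Genes that build granules and lysosome-related organelles, the process in which LYST acts, included no call. This list of AP-3, BLOC, HOPS and secretion genes had 24 of 33 members in the authors' deposited table, 12 of them above the median of all genes and none past the threshold, and its median was 0.10. The authors' coefficient for VPS16, a core subunit of the HOPS tether, was 0.61 ± 0.27 (implied SE, adjusted p = 0.388), and that for STXBP2, a partner of syntaxins in granule release, was 0.18 ± 0.15 (adjusted p = 0.749). Of the BEACH family outside the 9 genes, the authors' table held NBEAL1, with 0.58 ± 0.37 (adjusted p = 0.600), and NSMAF, with 0.21 ± 0.20 (adjusted p = 0.778).

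HECT-type ubiquitin ligases, the family of HUWE1, had a median of 0.21 over 14 measured genes other than HUWE1, and 9 of them lay above the median of all genes. HERC2, another giant ligase of the DNA damage response, had the smallest p among them, with the authors' coefficient at 0.62 ± 0.18 (implied SE) and an adjusted p of 0.0535. By the authors' values UBE3A, the ligase lost in Angelman syndrome, stood at 0.44 ± 0.21 (adjusted p = 0.426). Without adjustment, 3 of the 14 had a p below 0.05, all higher, where 8.35% of all genes were higher at that level. None of the 14 passed the adjusted threshold.

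**Figure D3:**
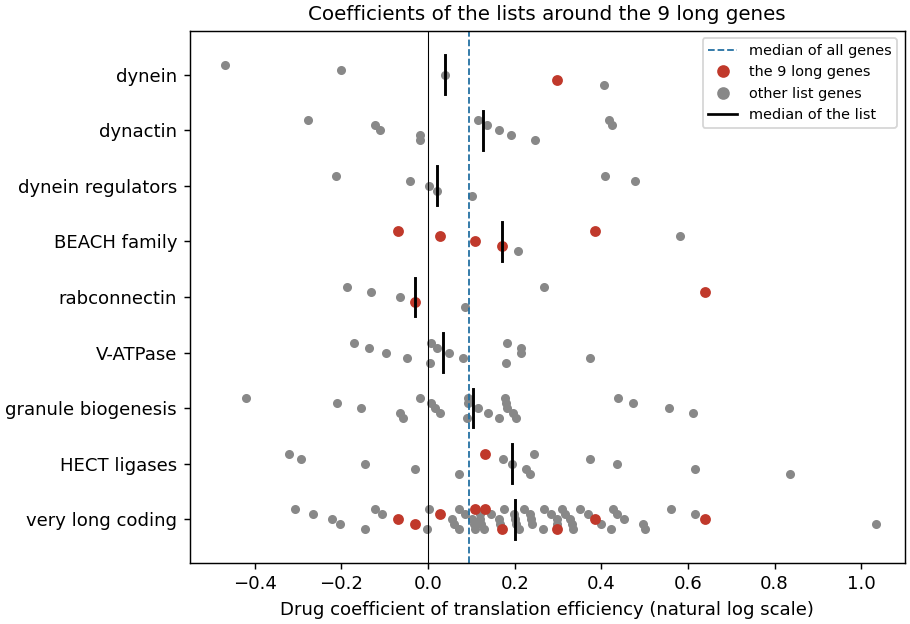
Drug coefficient (natural log scale) of every measured gene in the 9 lists plotted as rows, with the 9 genes of the group in red, other genes in grey, the list median as a black bar and the median of all genes (0.09) as a dashed line. The medians of the plotted lists run from -0.030 for the rabconnectin list to 0.20 for the genes known for very long coding sequences.

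Other genes with very long coding sequences were mostly above the median of all genes. Of 71 such genes written down from general knowledge, with the results for the 9 genes already known, 55 were in the authors' deposited table; 41 of these (74.5%) lay above the median of all genes, and their median coefficient was 0.20. By the authors' adjusted p, 3 of the 55 were higher and none lower: PRKDC, a kinase of DNA end joining, with 0.20 ± 0.05 (implied SE, adjusted p = 0.00856), CHD8, a chromatin remodeller, with 0.56 ± 0.15 (adjusted p = 0.0276), and SMG1, the kinase of nonsense-mediated decay, with 0.43 ± 0.11 (adjusted p = 0.0290), where 0.634% of all genes were higher. Relative to the median of all genes none of these 3 passed (adjusted p = 0.548, 0.153 and 0.225, recomputed from the errors the authors' values imply). At an unadjusted p below 0.05, 21 of the 55 were higher and none lower, where 8.35% of all genes were higher and 1.95% lower.

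These very long genes were measured more precisely than most, with a median implied error of 0.14 against 0.25 for all genes. In the most precise 20% of the table alone, 32 of 39 (82.1%) lay above the median of all genes, against 53.7% of all genes there, and 17 of 39 (43.6%) were higher at an unadjusted p below 0.05, against 18.6%. Not every precisely measured gene was high: the authors' table had -0.0011 ± 0.067 (implied SE, adjusted p = 0.997) for TLN1, the integrin activator talin, 0.0030 ± 0.10 (adjusted p = 0.995) for PLEC, the cytoskeletal linker plectin, and -0.22 ± 0.14 (adjusted p = 0.597) for USP9X, a deubiquitinase. These 3 were chosen after their values were seen, and the part of precision in the values of the very long genes was not tested. Relative to the median of these 55 genes, with p recomputed from the errors that the authors' values imply, DYNC1H1 stood at 0.095 (adjusted p = 0.732), LYST at 0.18 (adjusted p = 0.552) and DMXL2 at 0.44 (adjusted p = 0.237). On the same scale WDFY4 was at -0.18, WDFY3 at -0.27 and DMXL1 at -0.23, each with an interval that holds 0. The intervals of DYNC1H1 and LYST hold 0 on that scale as well. That of DMXL2, which was chosen for its value, lay above 0 before adjustment. In a bulk lysate a change in every cell and a change in the mix of cell states cannot be told apart. Of the 12 myeloid markers, the granule genes MPO, with 0.17 ± 0.02 (implied SE, adjusted p = 1.36e-10), and LYZ, with 0.19 ± 0.04 (adjusted p = 4.82e-05), were higher by the authors' values and none was lower; relative to the median of all genes none was higher and CEBPE, a transcription factor of granulocyte maturation, was lower (-0.48, adjusted p = 0.0388). The other granule genes of the 12 had larger errors, which do not separate them from MPO and LYZ. The authors' coefficients were -0.20 ± 0.23 for ELANE, -0.15 ± 0.18 for PRTN3, 0.017 ± 0.10 for CTSG and 0.093 ± 0.29 for AZU1. None of these passed the threshold, so no rise of granule genes as a class is read from MPO and LYZ. The median of the 12 was 0.12, and their part in the values of the 9 genes was not tested.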

How the data were processed

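The file is a table of the authors' own comparison for 6309 genes, with 1 transcript each. Its coefficient, taken as a natural log, its p-value, an adjusted p-value and a q-value were deposited by the authors, per the file headers. Bowtie2, SAMtools 1.11, UMI-tools 1.1.1 and hg38 are named in the submitters' processing notes; the model, its filters, its scaling and its log base were not given in the sources used here. The planned count test could not be run. The implied standard error is the coefficient divided by the z of its p-value. The deposited adjusted p-value differed from Benjamini-Hochberg over all genes by at most 6.61e-14. Centred p-values were recomputed from that error with SciPy 1.17.1 in Python 3.11.15. The implied error and the Benjamini-Hochberg adjustment were tried on simulated coefficients without a common offset. Centring was not part of that trial. No source says that the duplicate wells were separate cultures. The p-values then cover at most the spread of these samples, which may be technical. As the model was not given, whether they include that spread is unknown. RefSeq positions were matched by Ensembl gene identifier, and by symbol where that gave no match (6124 genes).

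The 9 genes and all lists were chosen with earlier results of these data known. Named are the 9 genes, up to 4 genes of each list with the smallest p, and others where stated; the values of 1 listed gene are not reported here. Protein lengths were not used here, so the planned length classes and the genes nearest in coefficient among long proteins were replaced by a list from general knowledge and by genomic span.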

Additional observations from a re-analysis of the deposited data

How the results depend on the processing

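The 3 higher calls among the 9 genes were 3 again at an adjusted p below 0.1, with the authors' q-value and without the 25% of genes with the largest implied error, and 0 at an adjusted p below 0.01, with the Benjamini-Yekutieli adjustment, and after centring on the median or on the precision-weighted mean; no lower call arose in any of these. Over all genes the 40 higher and 11 lower calls became 13 and 6 below 0.01, 66 and 20 below 0.1, 12 and 6 with Benjamini-Yekutieli, 5 and 32 centred on the median, and 6 and 31 centred on the precision-weighted mean. The losses below 0.01 and with Benjamini-Yekutieli follow from the construction of those settings. So do the calls kept below 0.1 and with the q-value, which was 0.83 times the adjusted p for every gene. Leaving out the imprecise genes adjusts for fewer genes, and all 3 are in the most precise 20%. The kept calls are therefore no sign of robustness. The calls after centring depend on the data, and none of the 9 genes passed there. Among 97 genes of the surrounding lists other than the 9, there was no call as deposited, where 0.634% of all genes were higher and 0.174% lower. Of the 97, 5 had an unadjusted p below 0.05, all higher, where 8.35% of all genes were higher and 1.95% lower. There was 1 call, HERC2, below 0.1, with the q-value and without the imprecise genes, where 1.05%, 0.761% and 0.972% of all genes were higher. WDFY4 turned negative after centring, at -0.067 on the median, -0.061 on the weighted mean and -0.18 on the median of the very long genes; on the last, added after the data were seen, LRBA (-0.094), NBEAL2 (-0.033) and HUWE1 (-0.073) turned as well, all within their errors. No paired analysis was possible because the table holds no value per library, and leaving out a replicate was not possible for the same reason. The classes of protein length were not run. Depth is unknown, and its effect on the values and their implied errors was not tested.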

Other observations

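Lipid transfer and autophagy genes that work beside these trafficking scaffolds gave no call. The 6 measured genes of the VPS13 and ATG2 family, which form bridges for lipid between membranes, had a median coefficient of 0.17 in the authors' deposited table; VPS13C had 0.50 ± 0.17 (implied SE, adjusted p = 0.151), VPS13D 0.44 ± 0.23 (adjusted p = 0.504) and ATG2A -0.32 ± 0.29 (adjusted p = 0.768). The 8 measured genes of selective autophagy, in which WDFY3 acts, had a median of -0.098, and 6 of them lay below the median of all genes; the authors' values were 0.29 ± 0.24 (adjusted p = 0.736) for GABARAPL2, an ATG8-family protein, and -0.13 ± 0.20 (adjusted p = 0.886) for the cargo receptor NBR1. KIF5B, the heavy chain of kinesin-1, which carries cargo opposite to dynein, was the sole measured gene of its list, with -0.067 ± 0.13 (adjusted p = 0.924) in the table of the authors.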
